A study of Mus musculus with 8 samples.

Results

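Heat-shock proteins and chaperones keep other proteins folded. They were taken here by gene symbol from the deposited gene list, and 81 of its 31053 genes belonged to them. A symbol counted when it began with Hspa, Hspb, Hspd, Hspe, Hsph, Hsp90, Dnaj, Bag or Cct followed by a number, with up to a pair of letters between them, so that Hsp90aa1 and Hsp90ab1 were kept. Pseudogene symbols, Ccdc and Hspbap symbols and the endoplasmic reticulum genes Hspa5, Hspa13, Hsp90b1, Dnajb9, Dnajb11 and Dnajc3 were left out. The 81 genes were 11 of the HSP70 family (Hspa), 1 of the HSP110 family (Hsph1), 2 of the HSP90 family, 4, 11 and 27 J proteins of the Dnaja, Dnajb and Dnajc groups, 6 BAG genes, the exchange factor gene Hspbp1, the HSP60 gene Hspd1 with the HSP10 gene Hspe1, 8 CCT genes and 8 small heat-shock genes (Hspb). Not all of their products are cytosolic: those of Hspd1, Hspe1 and Hspa9 work in mitochondria.

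The cells came from the colonic lamina propria, the connective tissue under the gut epithelium, of C57BL/6 mice aged 10 to 12 weeks. The mice were wildtype or carried a mutant allele that the sample titles call S203AKI and the series title RORgtS182A, an amino acid substitution in RORγt, the transcription factor that Th17 cells and group 3 innate lymphoid cells depend on. They were left untreated, or were given 2% dextran sulfate sodium (DSS), a chemical that damages the gut lining and so causes colitis, in their water over 7 days followed by 3 days without it, and all were taken on day 10. CD4 cells were enriched with a kit, about 10000 cells were loaded per library, and the 4 groups, each genotype without and with DSS, held 2 libraries each. A substitution cannot be read from counts per gene, so the genotype labels were not checked here, and the sources used here do not say in which cells the mutant allele is active.

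Messenger RNA molecules were counted by unique molecular identifiers (UMIs) per droplet barcode. Of 100673 deposited barcodes, 96721 passed the limits, with 10340 to 15370 per library, and clustering without the 81 genes gave 59394 T barcodes in 9 clusters and 37327 non-T barcodes in 17. The T clusters held a mean of 430 to 615 CPM per marker over 5 T cell markers (CPM being UMIs scaled to one fixed total), and the next cluster, which was ILC3-like, a mean of 189. At least 1 UMI of a defining marker of the other class was present in 58.2% of T barcodes and 23.9% of non-T barcodes. Pairs of libraries shared 19 to 59 barcode sequences. The highest median of UMIs per barcode in a library was 2441 in T and 5246 in non-T barcodes. All tests below summed the counts of a library's barcodes, since libraries and not cells are the replicates.

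The HSP70 proteins bind unfolded stretches of other proteins, J proteins bring them their substrates and start the hydrolysis of their ATP, and BAG proteins, HSP110 and Hspbp1 make them release ADP. HSP90 finishes the folding of kinases and hormone receptors, CCT is a ring that folds actin and tubulin, HSP60 with its HSP10 lid does the same for imported proteins in mitochondria, and small heat-shock proteins hold unfolded proteins without using ATP. Heat-shock factor 1 switches on many of these genes in stressed cells by binding inverted repeats of the bases GAA near their starts.

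Stretches of the promoters with such inverted repeats are shown because 6 of the genes behind them had their highest values in untreated mutant mice and Dnajb6 fell after DSS (values below), so these genes were chosen by their values. Of the 17 members with such a match, 15 were tested in T barcodes. In 10 of these both untreated mutant libraries were above the other 6, and in Cct5, Dnajb4, Dnajb6, Dnajc10 and Hspb6 they were not. They were also above in 9 of 40 tested members whose window had no match, 4 of 12 without a window and 7.16% of all genes tested. The 10 include Hspd1 and Hspe1, which share 1 stretch, and the near-identical copies Hspa1a and Hspa1b, so they are not separate cases. No test was made of these counts. Capitals mark matches to GAANNTTC or TTCNNGAA, which read the same on both strands, within 250 bases before the start in RefSeq windows of GRCm38.p6.
Hspd1: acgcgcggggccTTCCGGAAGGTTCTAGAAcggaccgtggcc
Hspa1a: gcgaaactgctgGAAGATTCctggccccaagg
Hspa1b: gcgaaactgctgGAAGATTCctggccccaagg
Hspb1: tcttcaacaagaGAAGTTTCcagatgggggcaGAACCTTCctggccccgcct
Hsph1: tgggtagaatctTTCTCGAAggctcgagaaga
Dnaja1: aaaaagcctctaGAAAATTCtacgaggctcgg
Dnajb6: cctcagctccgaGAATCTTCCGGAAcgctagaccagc
The Hspd1 stretch, at chr1:55088047-55088088 on the minus strand, lies before the RefSeq starts of both Hspd1 and Hspe1, which are read away from each other, and is also in the window of Hspe1, on the other strand. The GENCODE model of Hspd1, chr1:55077835-55088243, reaches further and covers it; those of Dnaja1 and Dnajb6 also cover their stretches below, and that of Hsph1 reaches into its own. The Hspa1a and Hspa1b stretches, at chr17:34972241-34972272 and chr17:34959323-34959354 on the minus strand, were identical, and the 250 bases before both genes matched at 247 positions (98.8%). The Hspb1 stretch is at chr5:135887790-135887841 on the plus strand, that of Hsph1 at chr5:149636350-149636381 on the minus strand, that of Dnaja1 at chr4:40722332-40722363 and that of Dnajb6 at chr5:29735840-29735876, both on the plus strand.

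A window was at hand for 66 of the 81 genes, and 17 of them (25.8%) held either motif, against 14.5% of all genes with a window and 12.8% of the 32851 windows. By motif, 13 members (19.7%) held GAANNTTC and 7 (10.6%) held TTCNNGAA, against 7.73% and 8.11% of all genes with a window. The 2 motifs overlap where units alternate. An unbroken run of 3 alternating units of GAA and TTC was found for Hspd1, Hspe1 and Dnajb6, and for 0.514% of all genes with a window. These matches describe letters and not binding. The window of Dnajb1, whose levels are given below, held neither motif, and none was at hand for Hspa8, Hsp90aa1 and Hsp90ab1.

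The members differed widely in level between cell types. Levels are given in CPM, UMIs scaled to the same total in the summed barcodes of each library. They come from 3′ counts and are used to compare libraries and cell types for a gene. Where genes are ranked by level, the order is that of UMIs counted and need not be that of RNA molecules in the cells. The T and non-T classes come from clustering, so that their differences are described and not tested. Of 73 members with at least 80 UMIs, 30 were higher in T barcodes in all 8 libraries, 22 were lower in all 8, and 21 were neither. The CCT ring subunits were higher in T barcodes for 6 of 7 members counted, and Hspd1 and Hspe1 both were. The small heat-shock genes were lower for 5 of 6, and the HSP70 family was divided, with 3 of 11 higher and 6 lower.

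Ratios above 8-fold in every library were found for Hspb2, Hspb7, Hspb8, Hspa12a and Hspa12b, all lower in T barcodes. Hspb7, a small heat-shock gene known from muscle, had a median level over the libraries of 59.4 CPM in smooth muscle or pericyte-like barcodes, 2.75 in endothelial-like barcodes and 0 in Th17-like and Treg-like T barcodes. Hspb8, a partner of Bag3 in the removal of damaged proteins, was at 95.5 in smooth muscle or pericyte-like and 69.1 in fibroblast-like barcodes. The highest median of Hspa12b, a distant HSP70 relative known from endothelium, was 32.2 and lay in endothelial-like barcodes, which also led for Hspa12a at 52.0. Hspb2 reached 54.4 in smooth muscle or pericyte-like barcodes and, over the 5 libraries with at least 30 such barcodes, 64.9 in glia-like ones.

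Hspa1a, Hspa1b, Bag3 and Hspb1 were lower in T barcodes in all 8 libraries as well, whereas Hsp90aa1 and Hsph1 were higher in T barcodes in 7 of 8 and Dnajb1 in 2 of 8. Hspa1a, the inducible HSP70, had its highest median, 2668 CPM, in endothelial-like barcodes and stood at 1733 in fibroblast-like and 117 in Treg-like barcodes. Bag3 had a median of 289 in endothelial-like, 217 in fibroblast-like and 39.2 in Treg-like barcodes. Hspb1, the main small heat-shock gene here, was at 1609.5 in endothelial-like, 1529 in smooth muscle or pericyte-like and 345 in fibroblast-like barcodes, and at 24.1 in Treg-like and 7.51 in Th17-like ones. Dnajc9, a J protein that handles histones, was highest in proliferating T barcodes, with a median of 177 against 58.1 in Th17-like ones. Dnajb13 had a median of 12.6 in both Treg-like and proliferating T barcodes and of 1.42 in naive T-like ones. Its gene overlaps Ucp2 on the other strand. The sources used here do not state whether counting used strand, so whether reads of the pair were kept apart is not known here.

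**Figure D1:**
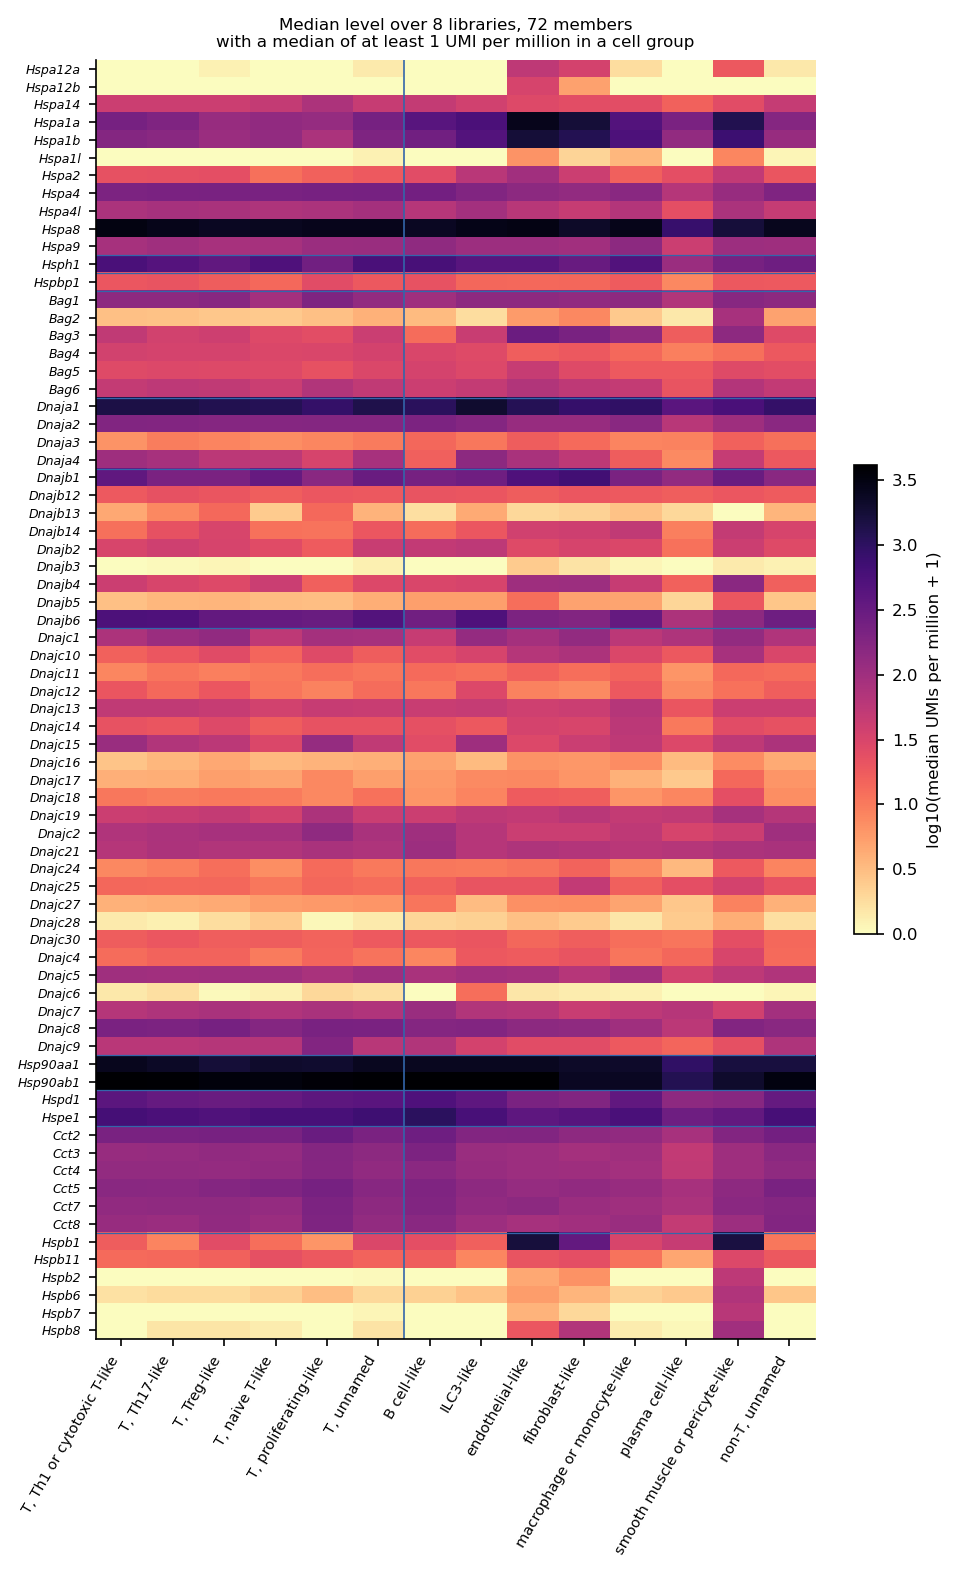
Median level over the 8 libraries of the 72 members that reached a median level of 1 in at least 1 of 14 cell groups, as log10 of the level in CPM plus 1 (colour). The vertical line separates T from non-T groups and horizontal lines separate families; Hspb2, Hspb6, Hspb7 and Hspb8 have their darkest cells in the smooth muscle or pericyte-like column.

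Among the families, the gene with the highest mean count in T barcodes was Hspa8, Hsph1, Hsp90ab1, Hspe1, Cct2, Hspb1, Dnaja1, Dnajb6, Dnajc8, Bag1 and, as the only one of its kind, Hspbp1. In non-T barcodes the same genes led, except that Bag3 and Dnajb1 took the place of Bag1 and Dnajb6.

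The first comparison set the genotypes side by side without colitis. In untreated mice the summed share of the 81 genes was higher in both mutant than in both wildtype libraries, in T and in non-T barcodes, but edgeR called no member in either class, and DESeq2 called 7 in T barcodes, named below. Families differed: the 27 Dnajc genes together took 0.107% and 0.107% of T UMIs in untreated wildtype and 0.105% and 0.101% in untreated mutant libraries. The 81 genes took 1.26% and 1.78% of the UMIs of T barcodes in untreated wildtype replicates 1 and 2, 2.76% and 2.79% in the untreated mutants, 1.59% and 1.34% in the DSS-treated wildtypes and 1.42% and 1.49% in the DSS-treated mutants. The untreated mutant libraries were therefore the highest 2 of the 8, and untreated wildtype replicate 2 came next. Without Hspa1a and Hspa1b the shares were 1.24% and 1.75%, 2.52% and 2.73%, 1.56% and 1.31%, and 1.39% and 1.45% in the same order.

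Among single genes, those of the HSP70 machine come first. Hspa1a was at 61.8 and 155 CPM in the T barcodes of untreated wildtype replicates 1 and 2, 1490.2 and 410 in the untreated mutants, 199 and 164 in the DSS-treated wildtypes and 136 and 196 in the DSS-treated mutants. Its near-identical copy Hspa1b was at 46.4 and 101, 934 and 248, 143 and 154, and 128 and 209. For both genes the untreated mutants were above the other 6 libraries and differed more than 3-fold between themselves. Reads of the copies are hard to separate, so their split is uncertain.
Hspa8, the constitutive HSP70, was at 1925 and 2630 in untreated wildtype, 3823 and 4063 in untreated mutant, 2661 and 2457 in DSS-treated wildtype and 2592 and 2713 in DSS-treated mutant libraries. Hsph1, the HSP110 exchange factor, was at 221 and 463, 1057 and 1101, 503 and 329, and 333 and 483. Again the untreated mutants did not overlap with any other group.
Among the J proteins, Dnaja1 was at 977 and 1128, 1759 and 1791, 1185 and 1303, and 1202 and 1581, with the untreated wildtypes lowest and the untreated mutants highest. Dnajb1, the J partner of inducible HSP70, was at 156 and 180, 392 and 289, 218 and 300, and 229 and 341, so that untreated mutant replicate 2 lay among the DSS-treated libraries. Bag3 was at 24.5 and 26.6, 63.9 and 32.5, 31.6 and 54.5, and 42.0 and 56.6, and only untreated mutant replicate 1 stood above the DSS-treated libraries.

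Among the other folding machines, the untreated mutants were highest for both HSP90 genes, Hspd1, Hspe1, Cct2 and Hspb1. They were not for the tested CCT genes Cct5, Cct6b and Cct8 and the small heat-shock genes Hspb6, Hspb8 and Hspb11. Hsp90aa1, the inducible HSP90, was at 1651 and 3119 in untreated wildtype, 5201 and 6017 in untreated mutant, 2354 and 1617 in DSS-treated wildtype and 1788 and 1884 in DSS-treated mutant T barcodes. Hsp90ab1, the constitutive HSP90, was at 3190.5 and 4840.5, 6300.3 and 7129.6, 3974 and 3098, and 3561 and 3355. For both genes untreated wildtype replicate 2 came next and lay above the DSS-treated libraries, while replicate 1 lay among them.
Hspd1 was at 258 and 502, 1034 and 1156, 421 and 261, and 281 and 308. Hspe1 was at 506 and 828, 1569.5 and 1643, 702 and 424, and 494 and 469. The genes of this pair overlap at their starts on opposite strands. Untreated wildtype replicate 1 lay just under the DSS-treated range for Hspd1 and inside it for Hspe1.
Cct2, a ring subunit, spanned far less, at 229 and 251, 270 and 264, 224 and 201, and 203.1 and 217, with all 4 untreated libraries above all 4 DSS-treated ones. Hspb1 spanned most, at 10.0 and 41.3, 117 and 153, 23.6 and 4.40, and 9.79 and 3.77.

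**Figure D2:**
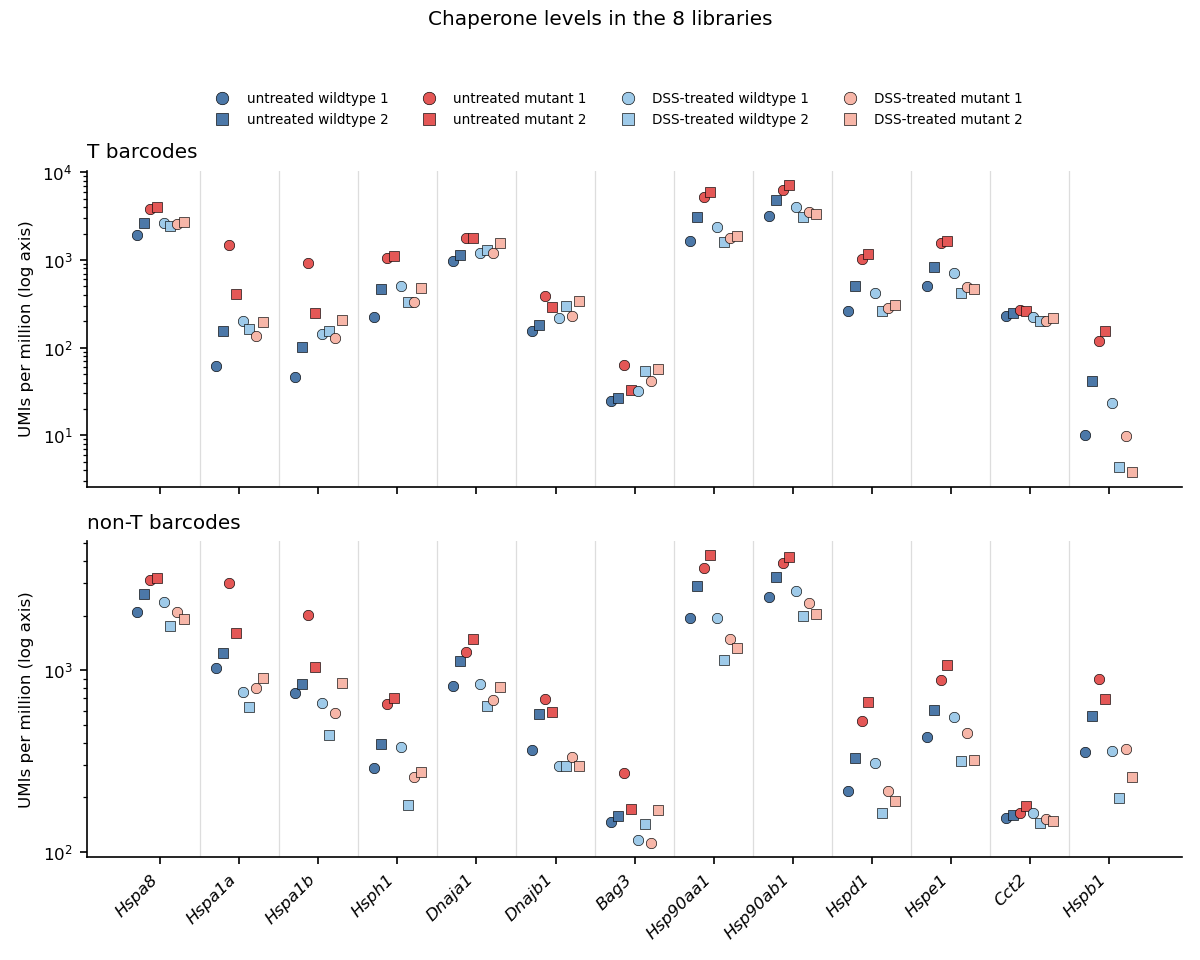
Levels of 13 chaperone genes in CPM (log axis) in each of the 8 libraries, in T barcodes (top) and non-T barcodes (bottom); colours are the 4 groups, circles replicate 1 and squares replicate 2. Red symbols (untreated mutant) lie highest for Hspa8, Hspa1a, Hspa1b, Hsph1, both HSP90 genes, Hspd1, Hspe1 and Hspb1 in both panels, and Hspa1a spans 61.8 to 1490.2 in T barcodes.

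With edgeR's quasi-likelihood test, no gene of 12649 (0%) and none of the 67 members tested differed between untreated mutant and wildtype T barcodes at an adjusted p under 0.05; 21 members had an unadjusted p under 0.05, 19 higher and 2 lower in the mutant, against 5.54% of all genes at that p. DESeq2 called 34 genes in all, of which 7 were members, all higher: Dnaja1, Dnaja4, Dnajb1, Hsp90ab1, Hspa1a, Hspa1b and Hspa8. With low counts kept in, edgeR made 222 calls, of which 16 were members, from the same libraries and so not as separate evidence. Without untreated mutant replicate 2, edgeR called Hspa1b and no other member. The largest log2 fold changes were those of Hspa1a, 3.12 ± 0.59 (SE), and Hspa1b, 2.99 ± 0.58, both with an adjusted p of 0.564. Hspb1 was at 2.40 ± 0.76, Hsph1 at 1.65 ± 0.34, Hspd1 at 1.52 ± 0.31, Hspe1 at 1.26 ± 0.27, Hsp90aa1 at 1.23 ± 0.28 and Dnajb1 at 1.01 ± 0.22, with adjusted p from 0.594 to 0.811. The median over the 67 members was 0.13 and that over all genes tested -0.01, with 50 members above 0 and 17 below. The smallest p that an exact permutation of 2 against 2 libraries allows is 0.333, so that single genes cannot be called by ranks in this design.

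Levels of 34 of the 67 members did not overlap between the untreated genotypes with the mutants higher, against 18.4% of all genes tested, and 8 did so with the mutants lower, against 18.7%. Both untreated mutant libraries were above all 6 others for 23 members (7.16% of all genes) and below them for 5 (10.7%), which were Bag6, Dnajc5, Dnajc11, Dnajc13 and Dnajc16. The 23 were 7 HSP70 genes, Hsph1, both HSP90 genes, Hspd1, Hspe1, Hspb1, the CCT subunits Cct2, Cct3, Cct4 and Cct7 and 6 J protein genes. Dnajc13, an endosomal J protein, was at 53.4 and 43.7 in untreated wildtype and 38.4 and 35.6 in untreated mutant T barcodes, a log2 difference of -0.40 ± 0.11 (adjusted p = 0.777).

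The same order was found in cell groups apart from each other. In 14 groups with at least 30 barcodes in each library, the share of the 81 genes was higher in both untreated mutants than in both untreated wildtypes in 13, and above the other 6 libraries in the same 13. In macrophage or monocyte-like barcodes it was 1.21% and 1.70% in untreated wildtype, 3.05% and 3.18% in untreated mutant, 1.51% and 0.980% in DSS-treated wildtype and 1.13% and 1.12% in DSS-treated mutant libraries. ILC3-like barcodes held 1.28% and 1.95%, 4.05% and 3.28%, 1.92% and 1.47%, and 1.56% and 1.79%. Th17-like barcodes held 1.26% and 1.87%, 2.89% and 2.94%, 1.63% and 1.37%, and 1.44% and 1.60%. The exception was the endothelial-like group, at 2.05% and 2.47% in untreated wildtype and 3.06% and 2.47% in untreated mutant libraries, and the fibroblast-like group differed little, at 1.73% and 1.99% against 2.07% and 2.27%. The smooth muscle or pericyte-like group was nearly tied, with untreated wildtype replicate 2 at 1.509% and untreated mutant replicate 1 at 1.511%. Groups of 1 library share their droplets and free RNA, so they are not separate replicates.

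By gene, Hspd1 and Hspe1 were higher in both untreated mutants than in both untreated wildtypes in all 14 groups. Hspa1a, Hspa1b and Hsph1 were so in all but the smooth muscle or pericyte-like group, Hsp90ab1 in all but the endothelial-like and Hspb1 in all but the fibroblast-like group. Hspa8, Hsp90aa1, Dnaja1 and Dnajb1 were so in 11, the exceptions being the endothelial-like, fibroblast-like and smooth muscle or pericyte-like groups. Bag3 was so in 8 groups, and Cct2 in 7 with the opposite order in 2.

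**Figure D3:**
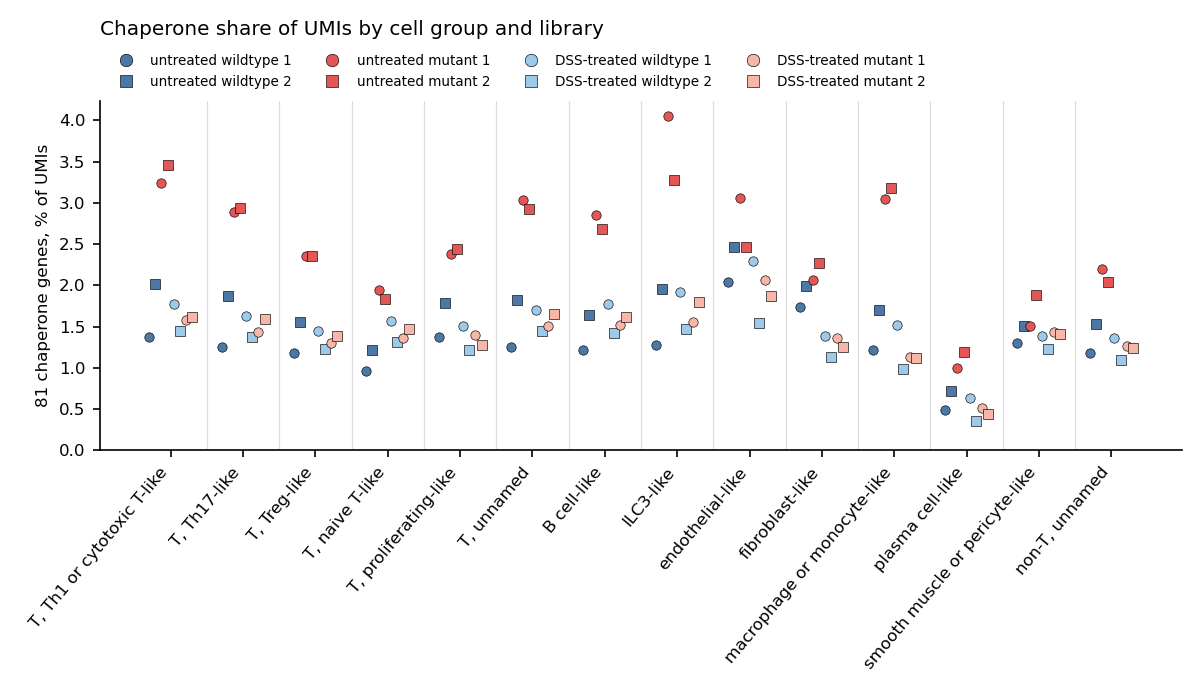
Share of UMIs taken by the 81 chaperone genes (%) in 14 cell groups with at least 30 barcodes in every library, 1 point per library with colours and shapes for group and replicate. The red points (untreated mutant) are the upper 2 in 13 groups, such as 3.05% and 3.18% in macrophage or monocyte-like barcodes.

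Depth per barcode differed between libraries, so each barcode was also thinned to 1000 UMIs. Of T barcodes with that depth, 6.16% and 10.6% held an Hspa1a or Hspa1b UMI in untreated wildtype, 39.1% and 22.2% in untreated mutant, 12.5% and 17.9% in DSS-treated wildtype and 14.4% and 24.1% in DSS-treated mutant libraries. DSS-treated mutant replicate 2 thus overlapped with the untreated mutants. Unthinned shares were 10.7% and 17.1%, 54.0% and 34.0%, 20.2% and 26.5%, and 22.3% and 42.1%, and 122 to 937 T barcodes per library were too shallow. In plasma cell-like barcodes, which secrete antibody and have a low share of chaperone UMIs, the thinned shares were 7.93% and 14.5%, 35.6% and 36.5%, 13.6% and 10.2%, and 8.63% and 25.6%. Unthinned, these deeper barcodes stood at 20.4% and 39.6%, 68.6% and 69.8%, 37.4% and 26.9%, and 26.6% and 51.2%, above T barcodes in each library. Only the thinned shares are near those of T barcodes, and how much of either comes from free RNA was not tested. Thinned fibroblast-like barcodes held 79.4% and 78.8% in untreated wildtype and 82.6% and 83.5% in untreated mutant libraries, well above both.

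For the members together the higher values were spread over T barcodes, while Hspa1a and Hspa1b UMIs lay in fewer barcodes in every library. The median T barcode held 11 and 16 chaperone UMIs per 1000 in untreated wildtype, 22 and 25 in untreated mutant, 14 and 13 in DSS-treated wildtype and 13 and 15 in DSS-treated mutant libraries. The 10% of T barcodes with the most of them held 26.5% to 32.5% of all chaperone UMIs in the 8 libraries. For Hspa1a and Hspa1b together the top 10% held 97.3% and 88.8% in the untreated wildtypes, 71.3% and 77.6% in the untreated mutants and 65.1% to 88.5% in the DSS-treated libraries. More T barcodes held such a UMI in the untreated mutants than in the untreated wildtypes. Where few barcodes hold any, the top 10% must hold most of them.

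**Figure D4:**
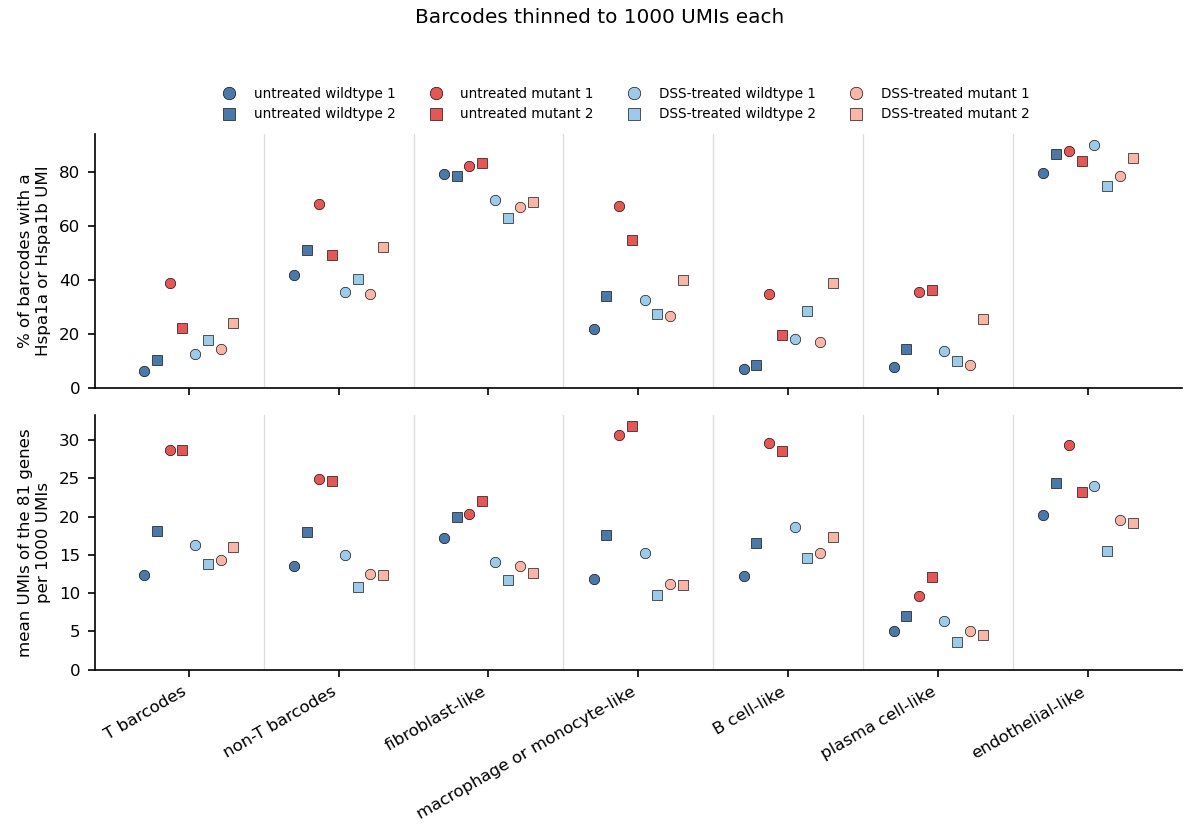
Barcodes thinned to 1000 UMIs each: top, share of barcodes with an Hspa1a or Hspa1b UMI (%); bottom, mean UMIs of the 81 genes per 1000 UMIs, per library, in T, non-T and 5 non-T groups. T barcodes of untreated mutants (red) are at 39.1% and 22.2% in the top panel, and fibroblast-like barcodes lie at 63.2% to 83.5% in all libraries.

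Non-T barcodes gave the same direction with smaller differences. The 81 genes took 1.37% and 1.74% of UMIs in untreated wildtype, 2.39% and 2.26% in untreated mutant, 1.42% and 1.05% in DSS-treated wildtype and 1.25% and 1.21% in DSS-treated mutant libraries. Hspa1a was at 1024 and 1243.5, 3019 and 1607, 763 and 630, and 798 and 909 CPM. Hspd1 was at 216 and 329, 525 and 671, 310 and 164, and 218 and 190. The untreated mutants stood above all others for both genes, and the untreated wildtypes were second for Hspa1a.
edgeR called 0 of 73 members and 0 of 15743 genes (0%) between untreated mutant and wildtype non-T barcodes, and DESeq2 called 0 members. At an unadjusted p under 0.05 there were 8 members, against 3.79% of all genes, of which Hspa1l, Hspd1, Hspa1a, Hsph1, Hspe1, Hspa1b and Hsp90aa1 were higher, with log2 fold changes from 0.69 to 1.62, and Dnajc13 was lower at -0.34. The median was 0.10 over the members and 0.02 over all genes. Both untreated mutants were above both untreated wildtypes for 32 of the 73, against 19.3% of all genes, and above the other 6 for 25, against 8.37%, and below the other 6 for 3 (Dnajc5, Dnajc12 and Dnajc13), against 5.11%. In summed barcodes, fewer cells of a type and less RNA per cell cannot be told apart: fibroblast-like barcodes were 29.3% and 38.2% of non-T barcodes in untreated wildtype, 35.0% and 23.0% in untreated mutant, 9.60% and 26.6% in DSS-treated wildtype and 17.2% and 28.7% in DSS-treated mutant libraries. Endothelial markers summed to 574 and 566 CPM of non-T barcodes in untreated wildtype and 797 and 761 in untreated mutant libraries, without overlap. Smooth muscle or pericyte markers, at 2144 and 1594 against 2821 and 1199, overlapped. The part of these cell types in the chaperone values was not tested.

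Other gene lists were measured beside these values. Immediate early genes, which cells also switch on during tissue handling, took 0.616% and 0.672% of T UMIs in untreated wildtype, 0.770% and 0.823% in untreated mutant, 0.623% and 0.651% in DSS-treated wildtype and 0.681% and 0.591% in DSS-treated mutant libraries, with the untreated mutants highest. In non-T barcodes they took 1.65% and 1.67%, 1.72% and 1.37%, 1.03% and 1.37%, and 1.13% and 1.40%, with no such order. Median mitochondrial shares of T barcodes were 2.84% to 3.73% and were not set apart in the untreated mutants, at 3.19% and 3.16%. Th17 markers summed to 406 and 539, 418 and 1181, 797 and 368, and 1465 and 231 CPM of T barcodes, with no order by group. The part of these lists in the chaperone values was not tested.

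The level of Hspb1 in T barcodes was 2.81% and 7.34% of that in non-T barcodes in untreated wildtype, 13.2% and 22.2% in untreated mutant, 6.52% and 2.20% in DSS-treated wildtype and 2.65% and 1.45% in DSS-treated mutant libraries. Summed fibroblast markers stood at 0.282% to 0.903% of their non-T level in the T barcodes of the 8 libraries and smooth muscle or pericyte markers at 0.449% to 2.71%, below Hspb1 in the untreated mutants. Endothelial markers stood at 5.07% to 16.6% and were lowest in the untreated mutants, at 5.80% and 5.07%. Glia markers stood at 11.1% to 27.1% and, at 17.3% and 27.1% in the untreated mutants, above Hspb1, with untreated mutant replicate 2 highest for both. Keratinocyte markers stood at 160% and 150% in untreated wildtype, 101% and 53.5% in untreated mutant and 2.62% to 3.87% in DSS-treated libraries. They summed to only 26.4 to 45.9 CPM in the T barcodes of the 8 libraries. In non-T barcodes they summed to 16.4 to 56.6 CPM in the untreated and 713 to 1469 in the DSS-treated libraries. The high percentages thus come with a low non-T level. Macrophage or monocyte markers stood at 2.42% to 15.4% and plasma cell markers at 1.09% to 7.12%. Hspb6, Hspb7 and Hspb8 together stood at 2.61% to 6.45%. The part of these cell types in the Hspb1 level was not tested.

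The next question was what colitis did in wildtype mice. Chaperones of wildtype T barcodes did not pass the test: edgeR called 13 of 12649 genes (0.103%, with 0.0712% higher and 0.0316% lower) and 0 of 67 members, 12 members (17.9%) had an unadjusted p under 0.05 against 20.9% of all genes, and DESeq2 called Dnajb6, Dnajc8 and Dnajc15 among 466 genes. The median log2 fold change was -0.10 over the members and 0.01 over all genes. Dnajb6, a J protein that keeps proteins from clumping, was at 474 and 515 before and 389 and 331 after DSS (-0.54 ± 0.14, adjusted p = 0.107), and Dnajc8, a J protein of the nucleus, at 252 and 242 before and 196 and 184 after (-0.46 ± 0.12, adjusted p = 0.107). Hspa1a and Hspa1b, at 0.67 ± 0.55 and 0.93 ± 0.55, had higher values after DSS without passing the test. Both DSS-treated wildtypes were above both untreated wildtypes for 21 members (35.6% of all genes) and below for 16 (19.8%).
In non-T barcodes of wildtype mice, edgeR called 293 of 15743 genes (1.86%, with 1.35% higher and 0.515% lower) and 0 of 73 members, 12 members (16.4%) had an unadjusted p under 0.05 against 18.9% of all genes, and DESeq2 called Hspa2, an HSP70 best known from testis, among 860 genes. Hspa2 was at 38.3 and 40.8 before and 24.2 and 27.8 after DSS (-0.58 ± 0.14, adjusted p = 0.0902). In stromal, endothelial, epithelial and glial clusters alone, Hspa2 and Hsp90aa1 were called lower, among 1034 genes called.

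Mutant mice gave calls. After DSS, 13 members were lower and 1 higher in mutant T barcodes at an adjusted p under 0.05, together 14 of 67 against 8.12% of 12649 genes (4.28% higher and 3.83% lower), with a median log2 fold change of -0.31 over the members and 0.01 over all genes. By family, both HSP90 genes, both HSP60 and HSP10 genes, Hsph1, 4 of 8 HSP70 genes, 1 of 7 CCT genes, 1 of 4 Dnaja genes, 1 of 4 small heat-shock genes and 1 of 24 Dnajc genes fell, while no Dnajb or BAG gene was called. Hspb1 fell by 4.43 ± 0.85 on the log2 scale (adjusted p = 0.0289), Hspa1a by 2.60 ± 0.58 (0.0369), Hspd1 by 1.99 ± 0.32 (0.0219), Hspe1 by 1.83 ± 0.27 (0.0219) and Hsp90aa1 by 1.71 ± 0.29 (0.0225). Hsph1 fell by 1.50 ± 0.34 (adjusted p = 0.0383), Hspa2 by 1.05 ± 0.18 (0.0235), Hsp90ab1 by 1.05 ± 0.21 (0.0301), Hspa8 by 0.67 ± 0.15 (0.0382) and Dnaja4 by 1.03 ± 0.26 (0.0453). The fold of Hspa1a rests on untreated mutant replicate 1, without which it was -1.42 with an adjusted p of 0.159.
Dnajc16 rose by 1.33 ± 0.27 (adjusted p = 0.0315) at a low level, from 1.59 and 1.12 to 3.55 and 3.68 CPM. Its call ended with only the libraries compared, on the authors' cell list, with no UMI of the other class and with classes set by marker UMIs. Bag3 (-0.06 ± 0.31), Dnajb1 (-0.35 ± 0.22) and Dnaja1 (-0.45 ± 0.14) did not pass the test, and neither did Hspa1b at -1.89 ± 0.56 (adjusted p = 0.0651).

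These 14 calls depended on the libraries: without untreated mutant replicate 1 or DSS-treated mutant replicate 2 none was made, without untreated mutant replicate 2 only Hspa1a, without DSS-treated mutant replicate 1 or either untreated wildtype 8, and without DSS-treated wildtype replicates 1 or 2 17 and 15. With T barcodes set by marker UMIs instead of clusters only Hspe1 was called, and Hspb1 was then at -1.50. With library size alone in place of TMM scaling, which moved the median of all genes from 0.01 to 0.11, 3 members were called higher and 11 lower. The shares of all genes called in that run are not given.

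**Figure D5:**
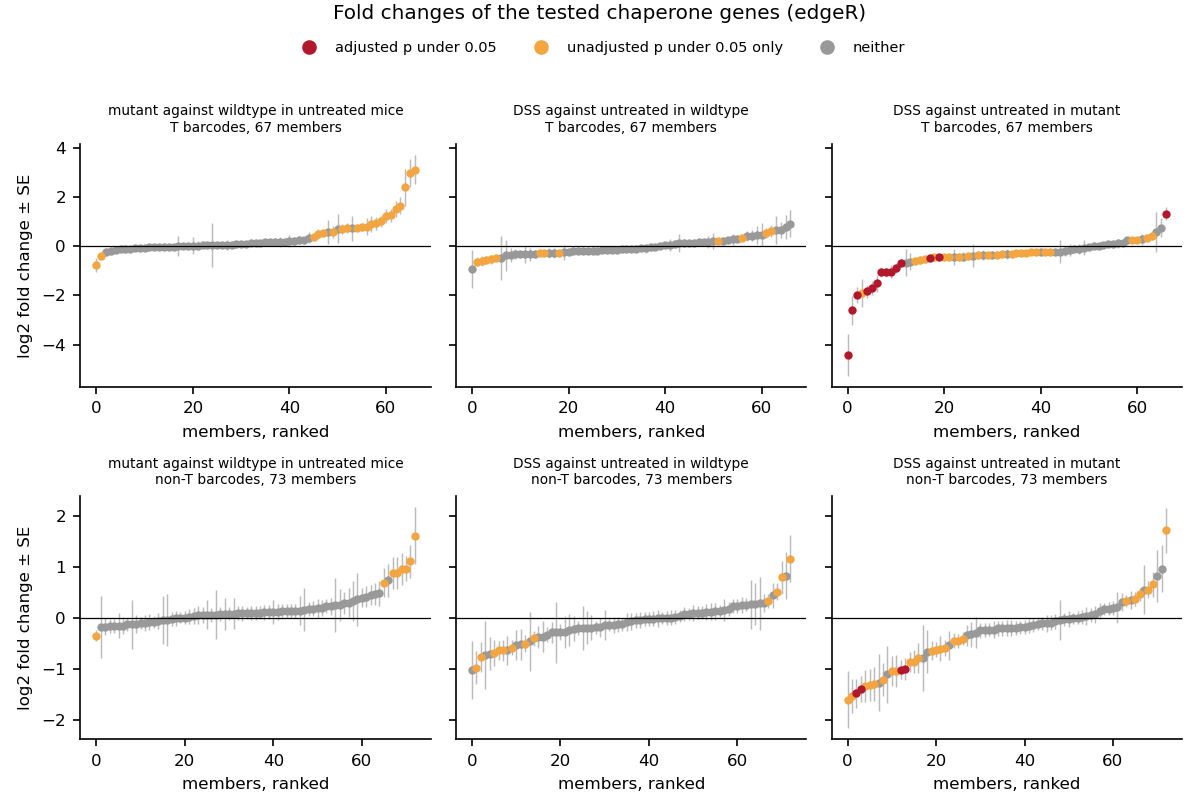
Log2 fold changes (edgeR) of the members tested, with standard errors derived from the test's F statistic. They are 67 in T barcodes (top) and 73 in non-T barcodes (bottom), ranked within each panel. Red points have an adjusted p under 0.05 and orange points only an unadjusted one. Red points appear in the DSS panels of the mutant alone, 14 in T and 4 in non-T barcodes.

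Non-T barcodes of mutant mice had 4 members lower after DSS, out of 73, against 3.79% of 15743 genes (2.43% higher and 1.35% lower): Hspa1a at -1.39 ± 0.25 (adjusted p = 0.0362), Hsp90aa1 at -1.48 ± 0.29 (0.0413), Dnajb1 at -1.003 ± 0.21 (0.0474) and Dnajc17, a J protein of the splicing machinery, at -1.01 ± 0.19 (0.0391). The median was -0.20 over the members and -0.01 over all genes. Hsp90aa1 was at 3656 and 4276 CPM before and 1479 and 1324 after DSS, and Dnajb1 at 698 and 591 before and 332 and 297 after. In macrophage or monocyte-like clusters alone, 1528 genes and 17 members were called, 16 of them lower, and Hspa1a was at -3.55. In stromal, endothelial, epithelial and glial clusters 1412 genes and 7 members were called, 6 of them lower, and Hspa1a was at -0.90. The difference between these cell groups was not tested. The shares of all genes called lower or higher in them are not given, so the member counts cannot be set against them. The call of Hspa1a ended with only the libraries compared, and that of Hsp90aa1 with marker UMIs or only barcodes with no UMI of the other class. That of Dnajb1 ended with library size alone and in stromal, endothelial, epithelial and glial clusters. That of Dnajc17 ended with only the libraries compared, the authors' cell list, marker UMIs, immune clusters or macrophage or monocyte-like clusters. No member was called without untreated mutant replicate 1 or DSS-treated mutant replicate 2. Only Dnajb1 was called without either untreated wildtype library, only Hspa1a without untreated mutant replicate 2 and only Hspa12a and Hspa12b without DSS-treated mutant replicate 1, while leaving out either DSS-treated wildtype gave 7.

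That calls came in the mutant and not in the wildtype does not show that DSS acted differently, and edgeR's test of that difference called none. In T barcodes edgeR's interaction of genotype and DSS called 0 of 67 members and 0 of 12649 genes (0%), with 15 members (22.4%) and 3.85% of all genes at an unadjusted p under 0.05, and 0 members called by DESeq2. Without the filter on low counts it called 95 genes, of which 13 were members, all with a lower DSS effect in the mutant. That run used the same libraries, so its calls are not separate evidence of an interaction. The log2 differences of the DSS effects, mutant minus wildtype, were -3.51 ± 1.11 for Hspb1, -3.27 ± 0.80 for Hspa1a, -1.76 ± 0.43 for Hspd1, -1.52 ± 0.38 for Hspe1 and -1.37 ± 0.40 for Hsp90aa1, all with an adjusted p of 1. Dnajb6 and Dnajc8, at 0.01 ± 0.20 and 0.02 ± 0.17, had nearly equal DSS effects in both genotypes. In non-T barcodes 0 of 73 members and 0% of genes were called, with 3 members (4.11%) and 1.58% of all genes at an unadjusted p under 0.05, and 0 members called by DESeq2.

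After DSS, in T barcodes 0 of 67 members and 0 of 12649 genes (0%) were called between mutant and wildtype by edgeR, 0 members had an unadjusted p under 0.05, and DESeq2 called 0. Hspb1 was the 1 member that edgeR called here once lowly counted genes were kept in. Hspa8 differed by 0.03 ± 0.15 on the log2 scale, Hsp90aa1 by -0.14 ± 0.28, Hspa1a by -0.15 ± 0.55, Hspd1 by -0.24 ± 0.31, Hspb1 by -1.10 ± 0.82 and Hspb8 by 1.09 ± 0.81. Both DSS-treated mutants were above both DSS-treated wildtypes for 6 members (13.1% of all genes) and below for 5 (7.83%). Non-T barcodes likewise had 0 of 73 members and 0% of genes called, 0 members at an unadjusted p under 0.05 and 0 called by DESeq2, and Hspa1a differed by 0.27 ± 0.25.

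Averaged over both genotypes, 4 DSS-treated against 4 untreated libraries, 21 of 67 members passed the test in T barcodes, 18 lower and 3 higher, where 23.2% of all genes did. The share of members called was thus somewhat above that of all genes, a difference that was not tested. The direction was not evenly divided: 11.1% of all genes were called lower and 12.1% higher. With library size alone 13 members were called lower and 6 higher, and the shares of all genes called in that run are not given. The median was -0.21 over the members and 0.01 over all genes. The lowest adjusted p were those of Hspa2, which was at 18.6 and 27.4 in untreated wildtype, 36.6 and 28.8 in untreated mutant, 15.8 and 16.3 in DSS-treated wildtype and 16.2 and 17.3 in DSS-treated mutant libraries (-0.83 ± 0.13, adjusted p = 0.00714), and Hspe1 (-1.08 ± 0.19, adjusted p = 0.00941). Hsp90aa1 fell by 1.02 ± 0.20 (adjusted p = 0.0118). Hspa2, Hspe1 and Hsp90aa1 passed under each of 15 alternatives and left-out libraries, with adjusted p up to 0.0369, 0.0481 and 0.0484. For Hspe1 and Hsp90aa1 this mean is mostly the mutant difference, at -1.83 and -1.71. In wildtype mice alone edgeR gave no HSP60, HSP10 or HSP90 gene an unadjusted p under 0.05. The medians there were -0.27 for HSP60 with HSP10 and -0.30 for HSP90.

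The groups overlapped for some of the 18 members that fell and not for others. For Hspa2, Cct2, Cct5, Dnajb6, Dnajc2, Dnajc8, Dnajc17, Dnajc30 and Bag1, all 4 untreated libraries were above all 4 DSS-treated ones; with Dnajc21, Hspa14 and Hspb6, which were not called, that made 12 members, against 8.85% of all genes. Dnajb6 was at 474 and 515 in untreated wildtype, 492 and 489 in untreated mutant, 389 and 331 in DSS-treated wildtype and 409 and 318 in DSS-treated mutant libraries, a fall of 0.53 ± 0.10 (adjusted p = 0.0115) with values of -0.54 in wildtype and -0.53 in mutant mice. Dnajc8 fell by 0.45 ± 0.09 (adjusted p = 0.0115) and Cct2 by 0.35 ± 0.08 (0.0158). The call of Cct2 ended with T barcodes set by marker UMIs (-0.19, adjusted p = 0.13) and without untreated wildtype replicate 2, either untreated mutant or DSS-treated wildtype replicate 2 (-0.35 to -0.30, adjusted p from 0.0527 to 0.072). For Hspe1, Hspd1, Hsp90aa1, Hsp90ab1 and Hspb1 the groups overlapped: untreated wildtype replicate 1 lay within or just under the DSS-treated range and the untreated mutants were highest. Hspd1 fell by 1.11 ± 0.22 (adjusted p = 0.0119), of which -0.23 ± 0.31 was the wildtype and -1.99 ± 0.32 the mutant difference. Dnajc15, a mitochondrial J protein, fell with another order, at 92.2 and 87.9, 89.8 and 63.0, 68.2 and 55.3, and 59.7 and 61.5, so that untreated mutant replicate 2 lay among the DSS-treated libraries. Its call (-0.52, adjusted p = 0.017) ended with classes set by marker UMIs (-0.37, adjusted p = 0.0556) and without either untreated wildtype, untreated mutant replicate 1 or DSS-treated wildtype replicate 2 (-0.54 to -0.39, adjusted p from 0.0505 to 0.0664). Bag5, Cct4 and Dnajc4, the others called lower, overlapped too. Hspb1 fell by 2.67 ± 0.57 (adjusted p = 0.0146) and Hsp90ab1 by 0.66 ± 0.14 (0.0163). Over the alternatives and left-out libraries the value of Hspb1 ran from -3.54 to -1.37. Neither call held without untreated mutant replicate 2, and that of Hsp90ab1 also ended without DSS-treated wildtype replicate 2.
The 3 members that rose were Dnajc16 (0.97 ± 0.19, adjusted p = 0.0115), Dnajc5, the cysteine string protein of secretory vesicles (0.25 ± 0.06, adjusted p = 0.0246), and Dnajc11, a mitochondrial J protein (0.35 ± 0.11, adjusted p = 0.0487). Dnajc5 was at 89.6 and 86.0, 85.6 and 85.8, 105 and 112.2, and 109 and 114, without overlap. All 4 DSS-treated libraries were above all 4 untreated ones for 5 members, against 21.3% of all genes. Without untreated wildtype replicate 2 only Hspa2, Hspe1 and Hsp90aa1 stayed called. Leaving out untreated mutant replicate 1 gave 10 calls, untreated mutant replicate 2 11, DSS-treated wildtype replicate 2 9 and DSS-treated mutant replicate 2 14.

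In non-T barcodes 21 of 73 members were called over both genotypes, 17 lower and 4 higher, against 19.0% of all genes, of which 8.65% were lower and 10.4% higher. The median was -0.10 over the members and 0.00 over all genes. Hspa1a fell by 1.04 ± 0.18 (adjusted p = 0.0112), with its 4 untreated libraries at 1024 to 3019 and its 4 DSS-treated ones at 630 to 909 CPM. Dnajb1 fell by 0.82 ± 0.15 (adjusted p = 0.0131), from 364 to 698 in the untreated to 297 to 332 in the DSS-treated libraries. Neither gene overlapped in summed non-T barcodes. Within the 14 cell groups, T groups included, this order was found in 1 for Hspa1a and 2 for Dnajb1, and the reverse in 0. Means of Hspa1a and Hspa1b UMIs per 1000 in thinned fibroblast-like barcodes were 3.58 to 4.84 untreated and 1.87 to 2.63 after DSS. In endothelial-like barcodes these ranges, 3.38 to 7.21 and 3.30 to 5.59, overlapped. The part of cell types in the fall of either gene was not tested. All 4 untreated libraries were above all 4 DSS-treated ones for 11 of the 73 members, against 13.4% of all genes. The reverse order was found for 7 members, against 13.5% of all genes. A lack of overlap was thus not particular to these genes. Hspa2 fell by 0.60 ± 0.10 (adjusted p = 0.0106), Dnajc17 by 0.83 ± 0.14 (0.0104), Hsp90aa1 by 1.06 ± 0.20 (0.0156) and Hspb1 by 0.995 ± 0.23 (0.0267). The call of Hspa2 ended on the authors' cell list (-0.43, adjusted p = 0.116), in immune clusters alone (-0.32, adjusted p = 0.199) and in macrophage or monocyte-like clusters alone (-0.22, adjusted p = 0.335). That of Hspb1 ended in stromal, endothelial, epithelial and glial clusters alone (-0.71, adjusted p = 0.122) and without untreated wildtype replicate 2 (-0.81), untreated mutant replicate 1 (-0.96), DSS-treated wildtype replicate 2 (-0.83) or DSS-treated mutant replicate 2 (-0.88). Over all alternatives the value of Hspb1 ran from -3.35 to -0.71.
Hspb2 fell by 1.09 ± 0.23 (adjusted p = 0.0202) and Hspa12a by 0.91 ± 0.21 (0.0257); these are the genes led by smooth muscle, glia and endothelium. Smooth muscle or pericyte markers summed to 2144 and 1594, 2821 and 1199, 1582 and 828, and 1084 and 767 CPM of non-T barcodes and endothelial markers to 574 and 566, 797 and 761, 450 and 309, and 506 and 376, so that endothelial markers were lower in all 4 DSS-treated libraries and smooth muscle or pericyte markers overlapped; neutrophil and keratinocyte markers were at most 78.6 and 56.6 in the untreated and at least 582 and 713 in the DSS-treated libraries. The part of these cell types in the fall was not tested. Hspb2 overlaps Cryab, and Dnajc17 overlaps Zfyve19, on the other strand. Hspa12a was not called within the stromal, endothelial, epithelial and glial clusters alone (-0.81, adjusted p = 0.0565), nor without any 1 of the 4 untreated libraries or DSS-treated wildtype replicate 1 (-0.96 to -0.84, adjusted p from 0.0532 to 0.0873). Hspb2 was called there but not on the authors' cell list (-0.99, adjusted p = 0.158), nor without untreated wildtype replicates 1 or 2, untreated mutant replicate 1, DSS-treated wildtype replicate 2 or DSS-treated mutant replicate 2 (-1.21 to -0.89, adjusted p from 0.0527 to 0.0695).
Hspa9, the mitochondrial HSP70, rose by 0.54 ± 0.12 (adjusted p = 0.0226), from 99.4 and 83.8 in untreated wildtype and 94.4 and 86.2 in untreated mutant to 119 and 139 in DSS-treated wildtype and 116 and 144 in DSS-treated mutant libraries. The call of Hspa9 ended on the authors' cell list (0.34, adjusted p = 0.0805) and in immune clusters alone (0.29, adjusted p = 0.086). It also ended without untreated wildtype replicate 2, either untreated mutant, DSS-treated wildtype replicate 2 or DSS-treated mutant replicate 2 (0.45 to 0.54, adjusted p from 0.0563 to 0.0986). In T barcodes Hspa9 did not change past the test (0.06 ± 0.07, adjusted p = 0.545). Dnajc6, auxilin, which uncoats clathrin vesicles, rose by 1.44 ± 0.32 (adjusted p = 0.0236) at 0.262 to 1.18 CPM; its highest median among cell groups, 11.4, was in ILC3-like barcodes. Its call ended in immune clusters alone (1.07, adjusted p = 0.128) and without any 1 of the 4 untreated libraries, DSS-treated wildtype replicate 2 or DSS-treated mutant replicate 2 (1.24 to 1.68, adjusted p from 0.0621 to 0.087). Dnajc5 and Dnajc11 rose by 0.36 ± 0.09 and 0.36 ± 0.10. Only Dnajb1 was called without untreated wildtype replicate 2, and leaving out untreated wildtype replicate 1, untreated mutants 1 or 2, DSS-treated wildtype replicate 2 or DSS-treated mutant replicate 2 gave 9, 8, 10, 7 and 4 calls.

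Other genes of the pathway were taken from lists outside the symbols. Among 32 heat-shock factors and co-chaperones, 0 were called between the genotypes in T or non-T barcodes, untreated or after DSS. In untreated T barcodes the HSP90 activator Ahsa1 was at 0.98 ± 0.24, Cacybp at 0.87 ± 0.19, Chordc1 at 0.71 ± 0.14, Fkbp4 at 0.58 ± 0.13 and Stip1, which joins HSP70 to HSP90, at 0.58 ± 0.16 on the log2 scale (adjusted p from 0.594 to 0.762), while Hsf1 was at 0.16 ± 0.14 and Hsf2 at -0.02 ± 0.15. The list's median was 0.14 against -0.01 over all genes. The list held 0.546% and 0.695% of T UMIs in untreated wildtype, 0.704% and 0.692% in untreated mutant, 0.526% and 0.432% in DSS-treated wildtype and 0.490% and 0.492% in DSS-treated mutant libraries, so that the untreated genotypes overlapped in this sum. Over both genotypes 5 of the 32 fell after DSS in T barcodes, namely Ubb, Sugt1, Pfdn2, Pfdn5 and Ppid, and none rose, where 11.1% of all genes were called lower and 12.1% higher. Ubb, a polyubiquitin gene, fell by 1.16 ± 0.21 (adjusted p = 0.00999). In non-T barcodes Cryab, a small heat-shock gene outside the symbols, fell by 1.17 ± 0.16 (adjusted p = 0.00587), Serpinh1, the collagen chaperone, by 1.07 ± 0.24 (0.0234), Ubb by 1.06 ± 0.19 (0.0118) and Sugt1 by 0.41 ± 0.11 (0.0394), and Fkbp5 rose by 1.25 ± 0.31 (0.0333), which made 4 lower and 1 higher of 32, where 8.65% of all genes were called lower and 10.4% higher.
Of 18 endoplasmic reticulum chaperones and stress genes, Hyou1 and Canx rose after DSS in T barcodes, by 0.52 and 0.34, and only Hyou1, by 0.52, in non-T barcodes. Their share of T UMIs, 0.403% and 0.419%, 0.408% and 0.449%, 0.463% and 0.394%, and 0.484% and 0.341%, did not set the untreated mutants apart. Of 17 immediate early genes, 6 fell and 1 rose over both genotypes in T and likewise in non-T barcodes, against the same shares of all genes.

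Members too low to test were 14 in T and 8 in non-T barcodes, of which 4 and 2 had no UMI. Dnajc5b, Cct8l1, Dnajc5g, Dnajb8, Hspb9, Hspb3, Dnajb7 and Dnajc22 were untested in both, with at most 19 UMIs over all non-T barcodes. Dnajb3, Hspa12b, Hspb7, Hspb2, Hspa1l and Hspa12a were untested in T barcodes alone, where no untested member had more than 41 UMIs.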

How the data were processed

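Single-cell 3′ RNA libraries of 8 samples, 2 in each of 4 groups, were read as the authors' deposited counts of UMIs per gene and barcode, with the authors' deposited cell list. Cell Ranger 3.1.0, Seurat 4.0.1 and mm10 are named per the submitters' processing notes, with no role given, and the strand setting of the counting is not given in the sources used here. Groups come from the labels, and the series' design text calls the samples independent biological replicates; titles give animal numbers and no shared replicate number. The members and gene lists were chosen with earlier results of these data known. The symbol rule was read so that Hsp90aa1, Hsp90ab1 and Hspbp1 belong.

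Barcodes with at least 400 genes and under 20% mitochondrial UMIs were kept. They were clustered with scanpy 1.11.5 (leidenalg 0.10.2, 1761 genes, 30 components, 15 neighbours, resolution 1), and clusters with at least 50% of the highest cluster's T marker level were T. The 1761 genes were left of 2000 variable genes after the members and pathway lists were taken out. Immunoglobulin, T cell receptor V and J, haemoglobin, mitochondrial and some sex-linked genes were taken out as well. No doublet caller was used, and 1088 barcode sequences occurred in more than 1 library; barcodes with no UMI of the other class were an alternative. Counts were summed per library and class and tested with edgeR 4.0.16 (quasi-likelihood, TMM scaling, filter on low counts, all 8 libraries in a fit, Benjamini-Hochberg adjustment, threshold 0.05) in R 4.3.3. The standard errors (SE) after ± were derived and are not an output of edgeR. They are the absolute log2 fold change divided by the square root of the test's F statistic. DESeq2 1.42.0, scaling by library size, no filter, other barcode sets and each library left out were alternatives. Deposited UMIs per library were 34497509 to 46960005, and counts limit the precision of the lowest members most. On simulated data for the mean DSS effect, 66.7% of 2-fold and 97.3% of 4-fold changes were recovered over 12402 genes in T barcodes, and 67.3% and 97.0% over 15470 genes in non-T barcodes. The simulation gave every gene the same dispersion (spread between libraries), 0.05, which was not fitted to the members. Comparisons of 2 against 2 libraries were not simulated, so these rates do not give the power for them or for members that vary more.

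By rule, named genes were the members called (the 12 with the lowest adjusted p where over 12 were), 13 chaperones by level in each library, the member with the highest mean level of each family, and members over 8-fold apart between T and non-T barcodes in every library. Further genes named because a count was 5 or fewer, or to show where groups overlapped, were chosen after their values were seen. Places are from GENCODE on GRCm38 and promoter windows from RefSeq on GRCm38.p6. Of the 81 members, 5 overlap another protein-coding gene on the same strand (Dnaja3, Dnajc14, Dnajc25, Hspa12b and Hspa14) and 24 on the other strand.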

Additional observations from a re-analysis of the deposited data

Results flagged for a closer look

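The share of T UMIs from Hspa1a and Hspa1b together stood out because DSS went with opposite directions in the genotypes. It was 0.0108% and 0.0257% in untreated and 0.0342% and 0.0318% in DSS-treated wildtype libraries, and 0.242% and 0.0659% in untreated and 0.0264% and 0.0405% in DSS-treated mutant libraries. Both DSS-treated libraries were above both untreated ones in the wildtype and below them in the mutant, and the DSS difference was lower in the mutant by 0.135 percentage points (-0.135, mutant minus wildtype). It was -0.0472 when untreated mutant replicate 1 was left out and -0.224 when replicate 2 was, a check chosen after seeing the data. The difference of these sums was not tested; edgeR's interaction for the single genes was -3.27 ± 0.80 for Hspa1a and -2.82 ± 0.78 for Hspa1b, with an adjusted p of 1 for both.

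The Dnaja genes in T barcodes had the same pattern. Their share was 0.121% and 0.139% in untreated and 0.145% and 0.153% in DSS-treated wildtype libraries, and 0.205% and 0.212% in untreated and 0.144% and 0.181% in DSS-treated mutant libraries, a difference of -0.0652 percentage points that was not tested. Dnaja1, the highest of them, had an interaction of -0.61 ± 0.20 with an adjusted p of 1 by edgeR. With 2 libraries per group no single library could be tested for standing apart.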

How the results depend on the processing

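Counts are members called, with all genes called in brackets. The number of genes tested in each run is not given, so these counts do not show whether members were called more often than other genes. In T barcodes, dropping the filter on low counts gave 10 (1357) for DSS in wildtype, 16 (222) for the untreated genotypes, 1, Hspb1, (36) for the genotypes after DSS, 23 (2554) for DSS in mutant and 13 (95) for the interaction. Each of these counts was above that with the filter, from the same libraries, so the added calls are not separate evidence of an effect. DESeq2 gave 3 (466) for DSS in wildtype and 7 (34) for the untreated genotypes. For DSS in mutant, 14 (1027) as reported, fitting only the libraries compared gave 9 (406) and setting classes by marker UMIs 1 (132). In non-T barcodes, DSS in wildtype gave 1 (860) with DESeq2 and 2 (1034) in stromal, endothelial, epithelial or glial clusters. DSS in mutant there, 4 (596) as reported, gave 14 (1409) without the filter, 16 (1564) with DESeq2, 12 (261) on the authors' cell list, 2 (690) by marker UMIs, 9 (248) in immune, 7 (1412) in stromal, endothelial, epithelial or glial and 17 (1528) in macrophage or monocyte-like clusters, the last chosen after seeing the data. Leaving out a library gave 0 to 1 for the untreated genotypes in T barcodes, 0 to 17 for DSS in mutant and 3 to 23 for the mean DSS effect, and in non-T barcodes 0 to 7 and 1 to 19 for those of DSS; it gave 0 for the other comparisons. A block of neighbouring animal numbers, which the labels do not state to be a pairing, gave 0 in each class for the untreated genotypes, the genotypes after DSS and the interaction, which also had 0 without it; neighbours share a treatment, so it could not be fitted for the DSS comparisons. The calls followed under the alternatives were those with the lowest adjusted p, at most 12 in a comparison. Weaker calls, such as those of Dnaja4, Dnajc5 and Dnajc11, and named genes that were not called are left out. Of 658 values of these 40 calls under the alternatives, 479 stayed past the threshold, 179 did not and 0 reversed. The cause of these changes was not tested. With 2 libraries a group, the spread is estimated from few samples, and free RNA and doublets were not removed.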
